A study of Mus musculus with 14 samples.

Results

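The hormones of the islet cells that are not β-cells, and 3 transcription factors of those cells, were followed through RNA sequencing of mouse β-cells and whole islets. The 9 genes are the hormone genes Gcg, Sst, Ppy, Pyy, Npy and Ghrl and the factor genes Irx1, Irx2 and Hhex. They were chosen by name, as the rows of 3 gene count tables whose Ensembl identifier carries one of these symbols, and make up 9 of the 37310 genes listed. Adult (postnatal day 45, n = 3) and neonatal (day 6, n = 3) samples are wild-type β-cells, whose isolation method the labels do not describe. TSC1 KO islets and their RC control islets (n = 2 each) are whole islets of mice aged 8 weeks, and the series describes the knockout as one of β-cells, with the promoter or Cre that restricts it not given. Db islets and their BKS control islets (n = 2 each) are whole islets of mice aged 4 weeks, with the Db genotype given by that name alone. The meaning of the prefixes RC and BKS is not given, and C57BL/6 is the strain label of all 14 libraries. The labels do not say if libraries of one group are different animals, and every p-value here rests on the spread among these libraries alone, part of which may be technical.

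The islet holds several endocrine cell types, each known by its main hormone. α-Cells make glucagon from the Gcg precursor, which raises blood glucose. δ-Cells make somatostatin from Sst, which restrains the release of insulin and glucagon from their neighbours. PP cells make pancreatic polypeptide from Ppy, the close relative Pyy encodes peptide YY, and ε-cells, found mostly around birth, make ghrelin from Ghrl. Npy encodes neuropeptide Y, a transmitter of sympathetic nerves that is also made by some rodent islet cells. Irx1 and Irx2 are Iroquois homeobox factors of α-cells, and Hhex is a homeobox factor that δ-cells need to form, which is also made in duct cells and in the developing endothelium.

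Ppy, Pyy and Npy encode peptides of one family, and their coding sequences are shown because the family likeness bears on whether reads could be credited to the wrong member. The stretch of 90 coding bases where Ppy, Pyy and Npy are most alike, from GENCODE M21 transcripts (GRCm38), is printed with the bases that all 3 share in capitals.
Ppy: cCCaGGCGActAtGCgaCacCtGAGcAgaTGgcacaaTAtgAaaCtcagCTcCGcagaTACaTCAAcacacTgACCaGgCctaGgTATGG
Pyy: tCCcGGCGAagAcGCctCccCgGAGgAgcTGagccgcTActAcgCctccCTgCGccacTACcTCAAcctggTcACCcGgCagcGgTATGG
Npy: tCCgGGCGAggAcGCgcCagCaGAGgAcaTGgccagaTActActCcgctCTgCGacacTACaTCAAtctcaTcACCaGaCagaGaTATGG
All 3 genes share 45 of the 90 bases, and Pyy and Npy share 65. The longest run of identical coding bases was 8 between Ppy and Pyy, 8 between Ppy and Npy and 7 between Pyy and Npy, which is short for a sequencing read. Irx1 and Irx2 share a longer run, of 32 bases. Ppy and Pyy are also neighbours on the minus strand of chromosome 11, with 5.36 kb between them. No member except Ghrl overlaps another gene in that annotation. Ghrl overlaps Gm26982 and Gm44033 on the opposite strand, and since the strand setting of the counting is not stated, its counts are uncertain.

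The 150 bases before the start of Gcg, Sst, Ppy and Pyy are shown because these 4 hormones carry most of the reads and because Ppy and Pyy moved in the same direction in TSC1 KO islets. RefSeq promoters (GRCm38.p6) matched 8 of the 9 members, all but Irx1. Capitals mark the cAMP response element TGACGTCA and the homeobox core TAAT or its reverse complement ATTA, searched on both strands. The stretches are chr2:62483654-62483803 for Gcg, chr16:23890845-23890994 for Sst, chr11:102101320-102101469 for Ppy and chr11:102107833-102107982 for Pyy, all on the minus strand.
Gcg: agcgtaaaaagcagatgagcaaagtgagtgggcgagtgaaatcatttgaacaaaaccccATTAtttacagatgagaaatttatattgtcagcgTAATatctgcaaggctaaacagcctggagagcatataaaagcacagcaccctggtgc
Sst: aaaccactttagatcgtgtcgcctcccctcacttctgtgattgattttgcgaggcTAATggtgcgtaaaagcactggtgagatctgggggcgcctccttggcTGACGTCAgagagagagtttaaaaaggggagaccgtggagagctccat
Ppy: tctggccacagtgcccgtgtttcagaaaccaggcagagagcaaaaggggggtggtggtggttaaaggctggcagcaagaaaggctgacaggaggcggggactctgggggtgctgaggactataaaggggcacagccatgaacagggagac
Pyy: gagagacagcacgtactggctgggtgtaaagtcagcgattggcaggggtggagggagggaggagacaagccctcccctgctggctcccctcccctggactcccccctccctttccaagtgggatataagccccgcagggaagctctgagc
TGACGTCA is found in Sst, where it begins 48 bases before the start, and in 1.36% of 32851 promoters of the same length. The TAAT core stands at 2 places in the Gcg stretch and at 1 in the Sst stretch, and 37.77% of all promoters hold it. Neither motif is in the Ppy or Pyy stretch, which says only that these letters are not in those windows.

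Libraries held between 3507929 and 17688772 gene counts, and those of TSC1 KO islets were the smallest. Levels are given in CPM, counts over the library total after scaling between libraries by TMM. Tsc1 itself, counted over the whole gene, was at 30.9 and 34.3 CPM in the libraries labelled TSC1 KO, against 25.1 and 54.0 CPM in RC control islets. These ranges overlap, and a whole-gene count in whole islets, with the deleted exons not given, does not check the knockout. Lepr, the leptin receptor gene that the db mutation affects, had 1 and 4 counts in Db islets, against 11 and 2 in BKS control islets, and was not tested. Of the reads of Ins1, Ins2, Gcg, Sst, Ppy and Pyy together, insulin made up 97.3%, 99.5% and 97.3% in adult β-cells, 93.2%, 95.9% and 89.4% in neonatal β-cells, 59.4% and 80.4% in TSC1 KO islets, 87.3% and 90.4% in RC control islets, 97.8% and 98.1% in Db islets, and 99.4% and 99.2% in BKS control islets. The β-cell libraries therefore carried Gcg, Sst, Ppy and Pyy reads as well, in all 6 of them. Mitochondrial genes took 39.8% and 46.8% of gene counts in TSC1 KO islets, against 12.4% and 9.05% in RC control islets.

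Divided by the summed length of all annotated exons of the gene, Ppy had the highest mean of the members in all 4 groups of islets. That length is 0.5 kb for Ppy and 1.494 kb for Gcg, and the order depends on it. Without the division Gcg averaged above Ppy in TSC1 KO islets (2541 against 1047 CPM) and in RC control islets (14999 against 10778 CPM). In Db and BKS control islets Ppy stayed highest. On the scale of CPM per kilobase of exon, Ppy averaged 2095 ± 851 in TSC1 KO islets (SD, n = 2) and was followed there by Gcg at 1701 ± 1247 and Sst at 1593 ± 1134, whose ranges overlapped with it and with each other. In RC control islets Ppy averaged 21557 ± 12059 on this per-length scale and Gcg 10040 ± 2085, with Pyy and Sst next and overlapping. In Db islets the order was Ppy, Sst, Pyy and Gcg with no overlap between neighbours, and in BKS control islets it was Ppy, Pyy, Sst and Gcg, with Pyy and Sst overlapping. In β-cells the order was Gcg, Sst, Ppy, Pyy and Npy at the adult age and Gcg, Ppy, Sst, Pyy and Npy at the neonatal age, and of these neighbours only Pyy and Npy at the neonatal age did not overlap. Irx1, Irx2, Hhex and Ghrl reached at most 23.4 CPM per kilobase in any islet library. The factor at the top among them was Hhex in TSC1 KO islets, at 21.6 ± 2.58 per kilobase, whereas Irx2 led in RC control islets at 5.01 ± 2.13 and overlapped Irx1. Because the tables were fitted separately, levels are compared only within a table.

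**Figure D1:**
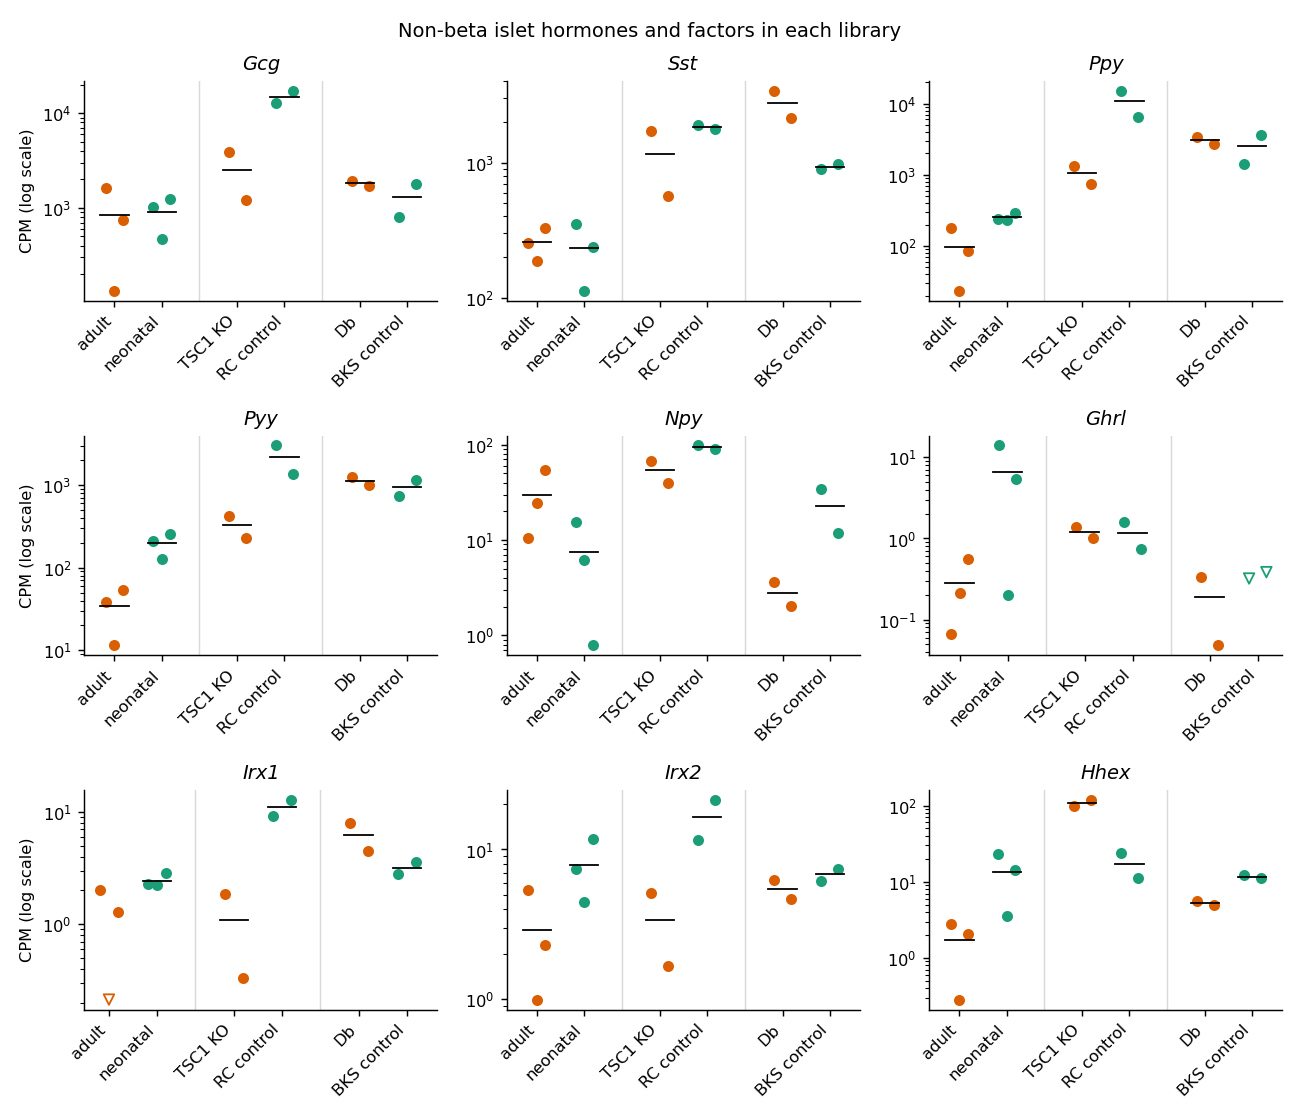
CPM on a log axis for each of the 9 members, one point per library, with adult left of neonatal β-cells, TSC1 KO left of RC control islets and Db left of BKS control islets. Black lines are group means, drawn where no library is at 0, and open triangles mark a count of 0, placed at the CPM of 3 counts. Gcg, Ppy, Pyy, Irx1 and Irx2 lie lower in both TSC1 KO libraries than in both RC control libraries, and Hhex lies higher. Sst and Npy, which were not called, lie lower in both as well. With 2 libraries against 2, such a separation arises in 1 of 3 cases without any difference.

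TSC1 KO islets held less RNA of the α-cell and PP-cell hormones than RC control islets, and more Hhex. Gcg, Ppy, Pyy, Irx1 and Irx2 fell, with log2 fold changes between -3.36 and -2.21, and Hhex rose by 2.66, while Sst and Npy did not pass the test. Of the 8 members tested, 1 was called higher and 5 were called lower (edgeR's quasi-likelihood test, Benjamini-Hochberg adjusted p below 0.05 over all genes tested). Over all 14515 genes 8.63% were called higher and 10.1% lower. The median log2 fold change was -2.38 over the tested members and 0.00 over all genes. β-Cell markers moved in the same libraries, with 9 of 10 called lower, a median of -2.96 and Ins2 at -5.06 ± 0.52. Mesenchymal markers summed to between 819 and 4370 CPM in TSC1 KO islets and between 279 and 660 CPM in RC control islets (median log2 fold change 2.54, none of 7 called by edgeR). The part of a change in cell makeup in the members' results was not tested.

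The glucagon gene Gcg stood at 3859 and 1224 CPM in the knockout libraries, against 12796 and 17202 CPM in RC control islets. Both knockout libraries lay below both control libraries, and the 2 knockout libraries differed from each other by a larger ratio than the controls did. The log2 fold change was -2.56 ± 0.65 (SE; 5.90-fold lower, adjusted p = 0.0445). Irx1, the α-cell factor, was at 1.86 and 0.333 CPM in TSC1 KO islets, against 9.14 and 12.8 CPM in RC control islets. The knockout values rest on 8 counts and 1 count, and the groups did not overlap. Its log2 fold change was -3.17 ± 0.62 (adjusted p = 0.0245). Irx2 was at 5.11 and 1.67 CPM in TSC1 KO islets, against 11.5 and 21.4 CPM in RC control islets, again without overlap. Its knockout values rest on 22 and 5 counts. The log2 fold change of Irx2 was -2.21 ± 0.57 (adjusted p = 0.0469). In whole islets, fewer cells of a type and less RNA per cell cannot be told apart.

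Pancreatic polypeptide and peptide YY transcripts fell as well. Ppy was at 1348 and 746 CPM in TSC1 KO islets, against 15042 and 6515 CPM in RC control islets, where the 2 libraries differed over 2-fold. The lower control library was still well above both knockout libraries, and the log2 fold change was -3.36 ± 0.62 (10.3-fold lower, adjusted p = 0.0215). Pyy was at 423 and 229 CPM in TSC1 KO islets, against 3013 and 1374 CPM in RC control islets. The same control library was the higher one for both genes, and Pyy had a log2 fold change of -2.75 ± 0.57 (adjusted p = 0.0276).

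Somatostatin did not pass the test. Sst was at 1727 and 570 CPM in TSC1 KO islets, against 1895 and 1763 CPM in RC control islets. One knockout library was just below the controls and the other far below them, so the groups did not overlap. The log2 fold change of Sst was -0.67 ± 0.57 (adjusted p = 0.439). Npy was at 68.3 and 39.7 CPM in TSC1 KO islets, against 98.2 and 90.02 CPM in RC control islets, a log2 difference of -0.80 ± 0.29 with no overlap (adjusted p = 0.107). Ghrl, at 1.39 and 1.00 CPM in TSC1 KO islets against 1.58 and 0.733 CPM in RC control islets, had at most 10 counts in a library and did not pass the filter on low counts.

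Hhex moved in the opposite direction to the other called members. It was at 99.9 and 118 CPM in TSC1 KO islets, against 23.5 and 11.1 CPM in RC control islets. Both knockout libraries were far above both controls, with a log2 fold change of 2.66 ± 0.38 (6.30-fold higher, adjusted p = 0.0146). Beside the somatostatin transcript of the same library, Hhex gave 57.8 and 207 reads per 1000 Sst reads in TSC1 KO islets, against 12.4 and 6.32 in RC control islets. Markers of other cells that can express Hhex moved in the same libraries. Of 8 duct markers 2, among them the chloride channel gene Cftr, were called higher and none lower. The 8 together summed to between 2216 and 2995 CPM in TSC1 KO islets and between 302 and 989 CPM in RC control islets. In TSC1 KO islets most of that sum was Spp1, which was not called, at 1469 to 1963 CPM. In RC control islets Spp1 was at 49.3 to 432 CPM. Reads of Cftr were also found in β-cells, at 45.5 CPM on average at the adult age. Of 7 endothelial markers 3 were called higher and 1 lower, with sums between 3134 and 4164 CPM in TSC1 KO islets and between 2126 and 2283 CPM in RC control islets. No duct or endothelial marker was at 0 in either group. Of 11 stomach mucosa markers 5 were tested and 4 called higher, with sums between 195 and 322 CPM in TSC1 KO islets and between 24.5 and 28.0 CPM in RC control islets, and Gkn1, Gkn2, Tff1, Muc5ac and Atp4b were at 0 in all 4 libraries. The part of these cells in the Hhex result was not tested.

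**Figure D2:**
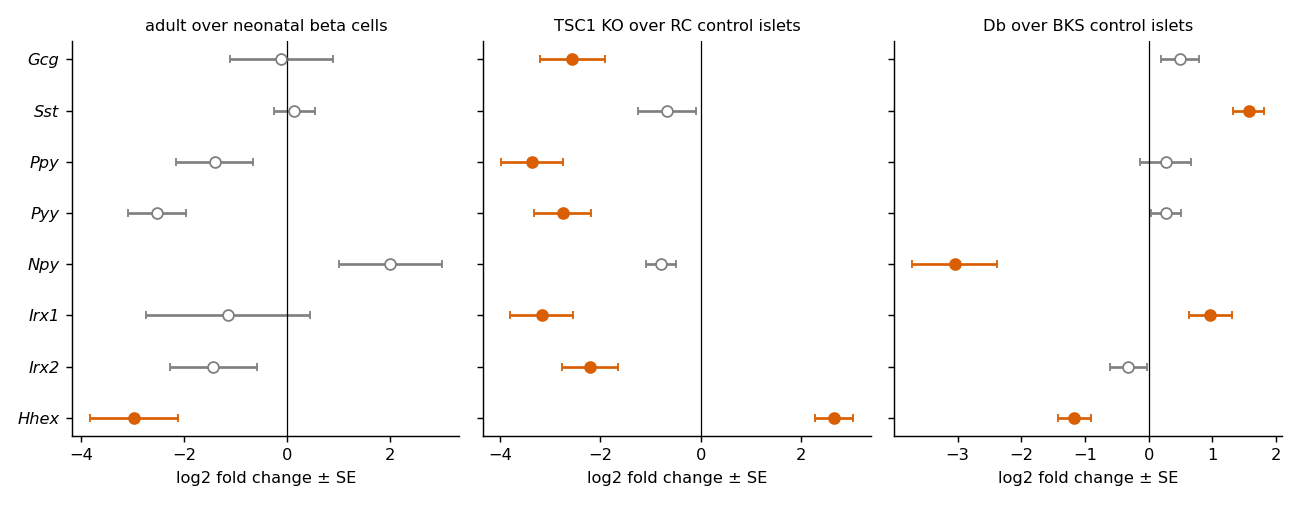
Log2 fold change with its standard error for the 8 tested members in adult over neonatal β-cells, TSC1 KO over RC control islets and Db over BKS control islets. Filled points passed the edgeR threshold and open points did not, and Hhex is the member called in all 3 panels, above 0 in TSC1 KO islets and below 0 in the other panels.

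Companion genes of α-cells were called lower in TSC1 KO islets, and the difference between them and the companions of δ-cells was not tested. Of 7 genes known to go with glucagon in α-cells, 6 were tested and 5 were called lower in TSC1 KO islets, and their summed level was between 310 and 458 CPM, against 1325 and 1764 CPM in RC control islets. The median log2 fold change of the 6 was -2.39, against 0.00 over all genes. Reads of these genes were also found in the β-cell libraries, where Slc7a2, Ttr, Smarca1 and Gc averaged 333, 240, 56.6 and 18.7 CPM at the adult age. In the TSC1 KO libraries all 10 pan-endocrine genes and 9 of 10 β-cell markers were called lower too, with medians of -2.70 and -2.96. The vitamin D binding protein gene Gc fell by 2.94 ± 0.50 on the log2 scale, the transthyretin gene Ttr by 1.91 ± 0.37 and the cationic amino acid transporter gene Slc7a2 by 2.87 ± 0.58 (edgeR adjusted p between 0.0215 and 0.0312). Of 5 δ-cell companions 4 were tested and none was called by edgeR in either direction. Their sum was between 89.2 and 119 CPM in TSC1 KO islets and between 78.1 and 86.4 CPM in RC control islets. Most of it was Rbp4 alone, at 66.6 to 109 CPM in TSC1 KO islets and 66.4 to 75.3 CPM in RC control islets. The log2 fold changes differed in direction, at 0.30 ± 0.28 for Rbp4, 1.82 ± 0.75 for Spock3, -0.57 ± 0.93 for Crhr2 and -1.91 ± 0.99 for Ptprz1.

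**Figure D3:**
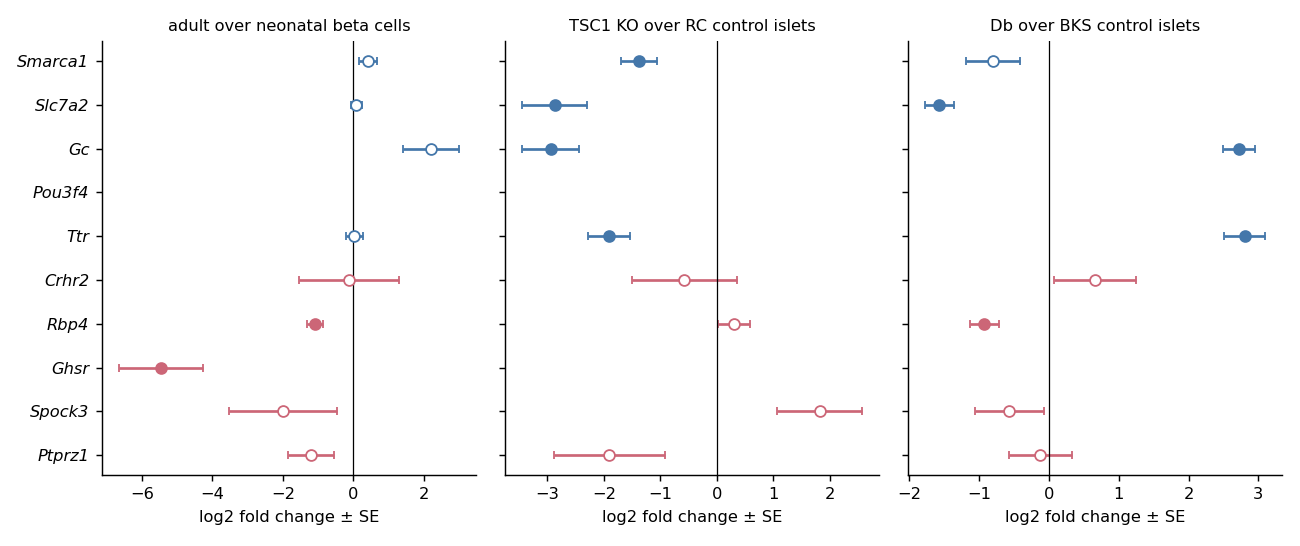
Log2 fold change with its standard error for a selection of genes that accompany glucagon in α-cells (blue) and somatostatin in δ-cells (red), in the 3 comparisons. Filled points passed the edgeR threshold, and a gene without a point did not pass the filter on low counts. In TSC1 KO islets Gc, Ttr, Slc7a2 and Smarca1, of α-cells, lie below 0 as filled points and no δ-cell companion is filled.

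Receptors and processing enzymes of the hormones were among the called genes. Of 14 receptors of the member hormones 6 were tested, and 2 were called lower in TSC1 KO islets (3 lower and 1 higher without RC control replicate 1). The glucagon receptor Gcgr was at 1.00 to 2.55 CPM in TSC1 KO islets and 59.96 to 64.6 CPM in RC control islets, and the somatostatin receptor Sstr3, which islets carry on primary cilia, was at 7.33 to 21.1 CPM in TSC1 KO islets and 145 to 229 CPM in RC control islets. Of 8 genes of hormone processing 7 were tested, and 5 were called lower and 1 higher. The carboxypeptidase gene Cpe fell by 2.58 ± 0.38, Scg5, the helper of prohormone convertase 2, by 2.53 ± 0.39, Pcsk2, the convertase itself, by 3.42 ± 0.53, and Pcsk1, which cuts proinsulin, by 2.76 ± 0.41 (log2 scale, adjusted p between 0.0149 and 0.0163). All 10 pan-endocrine genes, a list taken here as common to islet hormone cells, were called lower, among them Neurod1, Isl1 and Insm1. Not all of them mark every such cell, since Fev averaged 0.355 CPM in adult β-cells. The 10 genes summed to between 1604 and 2196 CPM in TSC1 KO islets and between 7589 and 11401 CPM in RC control islets. The call of one of them, Fev (adjusted p = 0.0488), held in 5 of 12 alternatives and was lost without RC control replicate 1 (0.0720), RC control replicate 2 (0.0824), with DESeq2 (0.0822) and with limma-voom (0.0680).

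Set against the pan-endocrine reads of the same library, the members differed in direction. Gcg gave 1757 and 763 reads per 1000 pan-endocrine reads in TSC1 KO islets, against 1686 and 1509 in RC control islets. Ppy gave 614 and 465 in the TSC1 KO libraries, against 1982 and 571 in the RC control libraries, and Pyy gave 193 and 143, against 397 and 120. The ranges of all 3 hormones overlapped between the groups on this scale. Sst gave 786 and 356 in the TSC1 KO libraries, against 250 and 155 in the RC control libraries, so that Sst was higher on this scale in both knockout libraries. Hhex gave 45.5 and 73.8, against 3.09 and 0.977, and Npy gave 31.1 and 24.7, against 12.9 and 7.90, both higher in both knockout libraries. Irx1, on 8 counts and 1 count in the knockout libraries, gave 0.846 and 0.208, against 1.20 and 1.12, and Irx2 gave 2.33 and 1.04, against 1.52 and 1.88, which overlap. Gcg reads per Sst read were 2.23 and 2.15 in the TSC1 KO libraries, against 6.75 and 9.76 in the RC control libraries. Most pan-endocrine reads were of Chga, at 1196 to 1574 CPM in TSC1 KO islets and 5091 to 7680 CPM in RC control islets. Chga was itself called lower (log2 fold change -2.20 ± 0.44) and averaged 22797 CPM in adult β-cells, so a ratio to these reads moves with Chga too. The ratios need no scaling between libraries and are given as a description, without a test.

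**Figure D4:**
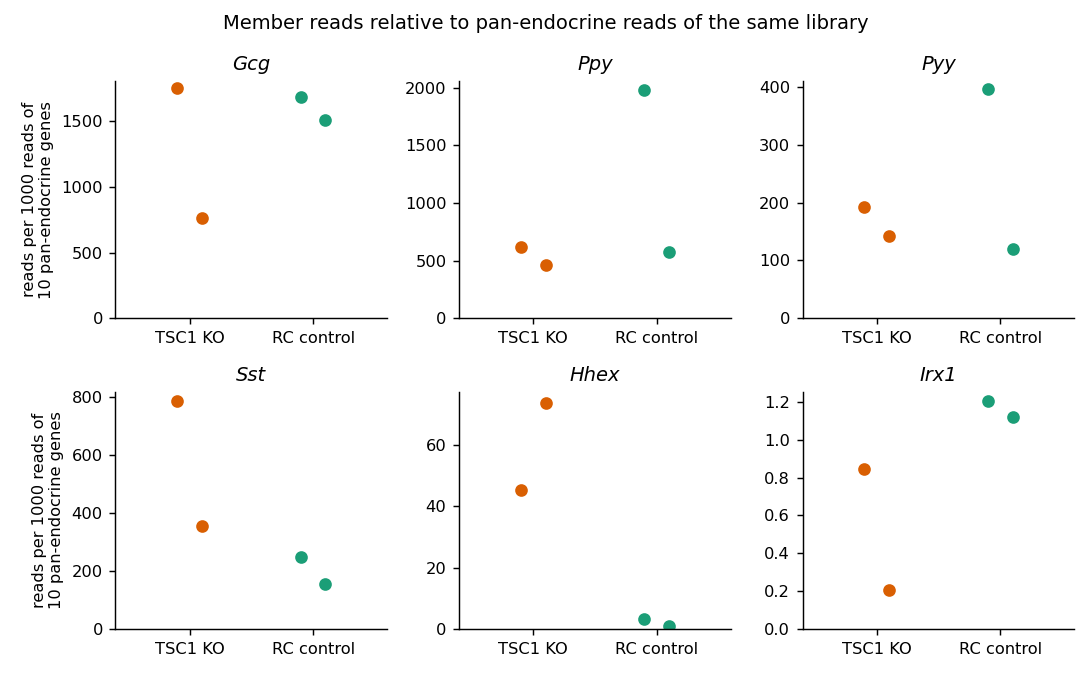
Reads of 6 members per 1000 reads of 10 pan-endocrine genes of the same library, 1 point per library, for TSC1 KO islets (left) and RC control islets (right), with each axis starting at 0. Sst and Hhex lie higher in both knockout libraries, Irx1 lies lower, and the points of Gcg, Ppy and Pyy overlap between groups.

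With 1 knockout library left out, edgeR took the spread from the 2 controls, moderated across genes, and assumed that the lone knockout library varies like them. Without TSC1 KO replicate 1 it called no gene of the table (3535 genes at an unadjusted p under 0.05), and the adjusted p of the 6 called members was between 0.0920 and 0.131. Their log2 fold changes stayed large, at -3.62 for Gcg, -3.86 for Ppy and 2.77 for Hhex. Without replicate 2 it called none either (3061 at an unadjusted p under 0.05), the 6 were between 0.152 and 0.225, and the log2 fold changes were -1.96 for Gcg, -3.00 for Ppy and 2.53 for Hhex. Gcg and Irx2 also lost their call without RC control replicate 2 (0.0677 and 0.0851), Irx2 with limma-voom too (0.0781), and all 6 kept their direction in every setting tried.

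Db islets held more Sst and Irx1 and less Npy and Hhex than BKS control islets, while Gcg, Ppy, Pyy and Irx2 did not pass the test. Of the 8 members tested, 2 were called higher and 2 lower, and over all 14369 genes 24.3% were called higher and 23.9% lower, so these shares are near the background. The median log2 fold change was 0.27 over the tested members and -0.03 over all genes. Markers of other cells moved in the same libraries. Of 11 acinar markers tested 8 were called higher and 1 lower (median log2 fold change 1.798, sums between 234 and 388 CPM in Db islets and between 76.9 and 81.0 CPM in BKS control islets), of 7 mesenchymal markers 5 were higher and none lower, and of 10 β-cell markers 7 were lower and 1 higher (median -0.94). Their part in the members' results was not tested.

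Sst was at 3383 and 2145 CPM in Db islets, against 890 and 972 CPM in BKS control islets. Both Db libraries lay above both controls, by 1.57 ± 0.24 on the log2 scale (2.97-fold, adjusted p = 7.2e-06), and the call held in all 12 alternatives run. Hhex, the factor of the same cells, moved the other way. It was at 5.52 and 4.89 CPM in Db islets, against 12.1 and 11.3 CPM in BKS control islets. The replicates of each group were close together, and the log2 fold change was -1.17 ± 0.26 (adjusted p = 0.000638, called in 12 of 12 alternatives). Hhex reads per 1000 Sst reads were 1.63 and 2.28 in Db islets, against 13.6 and 11.6 in BKS control islets. Of the 5 δ-cell companions 4 were tested and 1 was called, the retinol binding protein gene Rbp4, which fell by 0.92 ± 0.21, and with libraries scaled by total counts alone it lost the call (adjusted p = 0.141). Without BKS control replicate 1 a further companion, Ghsr, was tested and called higher. Duct markers summed to between 712 and 747 CPM in Db islets and between 295 and 297 CPM in BKS control islets (2 of 7 tested higher, 3 lower, and 1 higher and 2 lower without Db replicate 2 or BKS control replicate 2), and endothelial markers to between 503 and 507 CPM in Db islets and 709 and 727 CPM in BKS control islets (1 of 7 higher, 5 lower). The duct sum is mostly Krt7, a keratin, and the other 7 duct markers summed to between 67.2 and 74.2 CPM in Db islets and between 96.8 and 108 CPM in BKS control islets, the opposite direction. None of either list was at 0, and their part in the Hhex result was not tested.

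Npy showed the largest change of the tested members in Db islets. It was at 3.59 and 2.03 CPM in Db islets, against 34.1 and 11.8 CPM in BKS control islets. The 2 controls differed nearly 3-fold and both lay above both Db libraries, with a log2 fold change of -3.05 ± 0.67 (8.27-fold lower, adjusted p = 0.0252, called in 12 of 12 alternatives). Neural and Schwann cell markers, which could mark the nerves that make neuropeptide Y, summed to between 142 and 154 CPM in Db islets and between 52.4 and 70.2 CPM in BKS control islets. Of 10 such markers 6 were tested, of which 3, Th, Tubb3 and Ngfr, were called higher and 1 lower. Th, the first enzyme of catecholamine synthesis, was at 86.8 to 99.5 CPM in Db islets and 31.7 to 31.8 CPM in BKS control islets. Dbh, which makes noradrenaline in sympathetic nerves, was at 0 in both Db libraries and at 0 and 0.128 CPM in BKS control islets. The part of nerves in the Npy result was not tested.

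Glucagon and the PP-cell hormones varied more between BKS control libraries than between Db libraries. Gcg was at 1919 and 1717 CPM in Db islets, against 802 and 1794 CPM in BKS control islets. The second control overlapped with the Db libraries, and the log2 fold change was 0.49 ± 0.30 (adjusted p = 0.193). Without BKS control replicate 2 the change of Gcg was 1.21 and passed the test (adjusted p = 1.1e-06). Ppy was at 3368 and 2706 CPM in Db islets, against 1416 and 3633 CPM in BKS control islets, and Pyy at 1249 and 1012 CPM, against 730 and 1148 CPM. Each pair of controls spanned at least one Db library, with log2 fold changes of 0.27 ± 0.40 for Ppy and 0.27 ± 0.24 for Pyy (adjusted p = 0.615 and 0.358). Without BKS control replicate 2 both passed, at 1.131 and 0.66, and without BKS control replicate 1 the change of Ppy was -0.23.

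Of the α-cell factors Irx1 passed the test and Irx2 did not, and the difference between them was not tested. Irx1 was at 7.95 and 4.50 CPM in Db islets, against 2.78 and 3.59 CPM in BKS control islets, a log2 fold change of 0.97 ± 0.34 (adjusted p = 0.0194). The groups did not overlap, yet the call was lost without Db replicate 1 (0.340) and without BKS control replicate 1 (0.0766), as well as with DESeq2 (0.0820). Irx2 was at 6.24 and 4.70 CPM in Db islets, against 6.204 and 7.44 CPM in BKS control islets, which overlapped (log2 fold change -0.32 ± 0.29, adjusted p = 0.375). Ghrl had 6 counts and 1 count in Db islets and none in BKS control islets, where 3 counts would be 0.321 and 0.385 CPM, and was not tested.

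Of the 6 α-cell companions tested 2 were called higher and 1 lower (3 and 2 without BKS control replicate 2), shares near the 24.3% and 23.9% of all genes. Gc was at 105 to 136 CPM in Db islets and 15.5 to 21.2 CPM in BKS control islets, and Ttr at 1054 to 1891 CPM in Db islets and 162 to 260 CPM in BKS control islets. Slc7a2 fell by 1.57 ± 0.21 on the log2 scale. Of 4 hormone receptors tested 2 were called higher and 1 lower. Sstr5, a somatostatin receptor of β-cells, was at 2.47 to 3.70 CPM in Db islets and 0 to 0.256 CPM in BKS control islets. Sstr3 rose by 0.68 ± 0.20 and Gcgr fell by 0.51 ± 0.20. The call of Sstr3 was lost without Db replicate 1 (adjusted p = 0.0686) and without Db replicate 2 (0.0558), and that of Gcgr without Db replicate 1 (0.115), Db replicate 2 (0.296) or BKS control replicate 1 (0.251), among others, so that Gcgr was called in 5 of 12 alternatives. Among hormone processing genes 3 of 7 were called higher and 2 lower (2 and 1 without BKS control replicate 2), with Pcsk2 at 3079 to 3297 CPM in Db islets and 1350 to 1407 CPM in BKS control islets. Pan-endocrine genes were called higher for Chgb, Scg2 and Scg3, all granule proteins, and lower for the factor Pax6. Chgb, which encodes chromogranin B, was at 7173 to 7223 CPM in Db islets and 679 to 887 CPM in BKS control islets. Scg3 was lost without Db replicate 1 (adjusted p = 0.169), and Pax6 without Db replicate 1 (0.159), Db replicate 2 (0.0699) or BKS control replicate 1 (0.0594).

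The makeup of the non-insulin hormone reads is given as a description, without a test. Of the summed reads of Gcg, Sst, Ppy and Pyy, somatostatin took 34.1% and 28.3% in Db islets, against 23.2% and 12.9% in BKS control islets, and glucagon took 19.3% and 22.7%, against 20.9% and 23.8%. In TSC1 KO islets somatostatin took 23.5% and 20.6%, against 5.79% and 6.57% in RC control islets. In β-cells it took 12.1%, 52.7% and 27.1% at the adult age and 19.4%, 11.9% and 11.8% at the neonatal age. Pyy took 1.81%, 3.23% and 4.37% in adult β-cells, against 11.4%, 13.4% and 12.7% in neonatal β-cells. All 3 adult libraries lay below all 3 neonatal libraries in the share of Pyy.

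**Figure D5:**
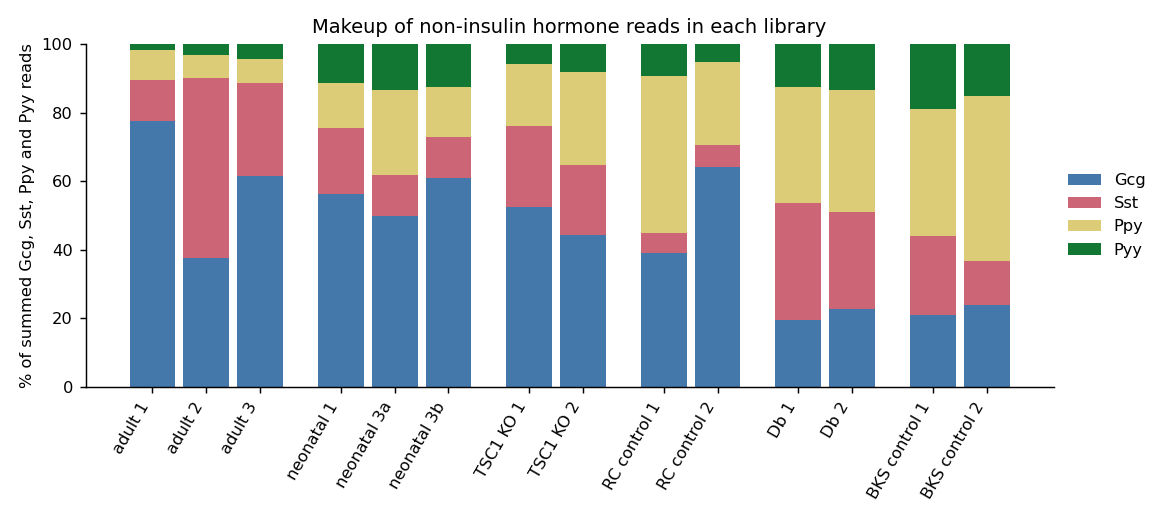
Share of each of Gcg, Sst, Ppy and Pyy in their summed reads, as stacked percentages, 1 bar per library. The Sst share is larger in both TSC1 KO libraries than in both RC control libraries, and the Pyy share is smaller in all adult than in all neonatal β-cell libraries.

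In β-cells, adult libraries held less Hhex than neonatal libraries, and the main islet hormones Gcg and Sst showed no called difference. Of the 8 members tested none was called higher and 1, Hhex, was called lower, while 3.38% of all 14304 genes were called higher and 3.6% lower. The median log2 fold change was -1.28 over the tested members and -0.03 over all genes.

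Gcg was at 1637, 134 and 752 CPM in adult β-cells, against 1023, 473 and 1241 CPM in neonatal β-cells. Adult replicate 2 held far less than the other adult libraries, the groups overlapped, and the log2 fold change was -0.12 ± 1.00 (adjusted p = 0.972). Sst was at 256, 189 and 331 CPM in adult β-cells, against 354, 113 and 239 CPM in neonatal β-cells, a log2 fold change of 0.14 ± 0.40 (adjusted p = 0.908). Adult replicate 2 was the lowest adult library for Ppy, Pyy, Irx1, Irx2 and Hhex as well, but not for Npy or Ghrl. Ppy was at 181, 23.7 and 86.1 CPM in adult β-cells, against 238, 236 and 296 CPM in neonatal β-cells, and did not pass (log2 fold change -1.40 ± 0.75, adjusted p = 0.400). Pyy was at 38.3, 11.5 and 53.4 CPM in adult β-cells, against 209, 128 and 257 CPM in neonatal β-cells. Neither gene overlapped between ages, and Pyy had a log2 fold change of -2.52 ± 0.57 (adjusted p = 0.0513), just outside the threshold. Without adult replicate 2 the adjusted p of Pyy was 0.000965 (log2 fold change -2.10) and without adult replicate 3 it was 0.0459. Without adult replicate 1 (0.206), neonatal replicate 1 (0.0610), neonatal replicate 3a (0.148) or neonatal replicate 3b (0.123) it did not pass, and Pyy was called in 6 of 13 alternatives.

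Hhex was at 2.80, 0.285 and 2.08 CPM in adult β-cells, against 22.8, 3.56 and 14.3 CPM in neonatal β-cells. No adult library reached the lowest neonatal one, and the log2 fold change was -2.97 ± 0.85 (7.84-fold lower, adjusted p = 0.0460). The adult values rest on 42, 4 and 26 counts. The call is close to the threshold. It was lost without adult replicate 1 (adjusted p = 0.0814), adult replicate 2 (0.140), adult replicate 3 (0.132), neonatal replicate 1 (0.232) and neonatal replicate 3b (0.0891), and with limma-voom (0.206). Duct markers had sums between 260 and 297 CPM in adult and between 453 and 561 CPM in neonatal β-cells (0 of 8 higher, 3 lower by edgeR, 1 lower without any one of the adult libraries, none at 0). Without Krt7 the sums were between 106 and 130 CPM in adult and between 122 and 172 CPM in neonatal β-cells, which overlap, and the part of duct cells in this result was not tested. Endothelial markers summed to at most 20.7 CPM in adult and 11.4 CPM in neonatal β-cells, with none of 4 tested called by edgeR, and Emcn and Esm1 were at 0 in the neonatal libraries.

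Irx1 was at 2.00, 0 and 1.28 CPM in adult β-cells, against 2.27, 2.21 and 2.85 CPM in neonatal β-cells. The groups did not overlap. The library with no Irx1 count, adult replicate 2, allows up to 0.214 CPM, and the gene did not pass (log2 fold change -1.16 ± 1.59, adjusted p = 0.764). Irx2 was at 5.41, 0.997 and 2.32 CPM in adult β-cells, against 7.40, 4.50 and 11.7 CPM in neonatal β-cells (log2 fold change -1.43 ± 0.84, adjusted p = 0.366). Npy was at 10.5, 24.6 and 54.3 CPM in adult β-cells, against 15.4, 6.17 and 0.790 CPM in neonatal β-cells. The groups overlapped, and its log2 fold change of 2.00 ± 1.00 did not pass (adjusted p = 0.323). Ghrl was at 0.0668, 0.214 and 0.559 CPM in adult β-cells, against 14.02, 0.201 and 5.47 CPM in neonatal β-cells. Neonatal replicates 1 and 3b held 216 and 90 counts and every other β-cell library at most 7, so neonatal replicate 3a lay within the adult range. Ghrl did not pass the filter, and where an alternative tested it, it was called in 3 of 6.

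Among the companion genes of δ-cells some moved with age in β-cells. Of 5 δ-cell companions 2 were called lower. The ghrelin receptor Ghsr was at 0 to 0.499 CPM in adult and 3.22 to 17.3 CPM in neonatal β-cells, and Rbp4 at 55.2 to 96.4 CPM in adult and 125 to 183 CPM in neonatal β-cells. Ghsr was lost without adult replicate 3 (adjusted p = 0.0506) and neonatal replicate 1 (0.107) and with limma-voom (0.148), and Rbp4 without adult replicate 2 (0.0661). Of 4 receptors tested Gcgr and Ghsr were called lower and Sstr3 higher. Gcgr was at 7.03 to 20.5 CPM in adult and 25.6 to 68.3 CPM in neonatal β-cells, lost without adult replicate 1 (0.0986) and adult replicate 3 (0.0827), and Sstr3 was lost without adult replicate 1 (0.0519) and adult replicate 2 (0.0626). Of 7 hormone processing genes tested 3 were called higher and 1 lower, and without adult replicate 2 or 3 this left Scg5 alone, which rose by 0.88 ± 0.17 and was called in 13 of 13 alternatives. Of 10 pan-endocrine genes Scg3 and Chgb were called higher and Fev and Insm1 lower, and without adult replicate 2 none of the 4 was called (1 of them without adult replicate 1 or 3, 2 without neonatal replicate 3b).

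The difference between the TSC1 KO effect and the Db effect was itself tested in one model over the 8 islet libraries. Of the 9 members tested there 7 were called, 1 higher and 6 lower in the TSC1 KO effect, and 31.8% of all 15702 genes were called in either direction. Hhex differed by 3.74 ± 0.42 on the log2 scale (adjusted p = 9.6e-05), being higher in TSC1 KO and lower in Db islets than in their controls. Irx1 differed by -4.22 ± 0.71 (adjusted p = 0.00101) and Sst by -2.33 ± 0.64 (adjusted p = 0.0176). Npy, at 2.16 ± 0.74, did not pass (adjusted p = 0.0655). The 2 genotypes also differ in age, in table and in the prefix of their controls, which cannot be told apart from the genotype.

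Across the 14 libraries, each table centred on its own mean, the genes most like a member in log2(CPM + 1) were ranked among 12157 genes by Pearson correlation, as a description without a test. Libraries of a table share their handling, and every gene of a library shares its depth. Among the nearest to Gcg were Irx1 (0.906), 9030622O22Rik (0.903), 1810021B22Rik (0.901) and ENSMUSG00000086647 (0.881). Nearest to Ppy was Pyy (0.925), then Mzf1 (0.917), 1810021B22Rik (0.913), Irx1 (0.911) and C130021I20Rik (0.904). For Sst they were Rom1 (0.907), Grb14 (0.898), Krt222 (0.889), Atp13a2 (0.889) and Acd (0.867), none of them a member. For Hhex they were Proser2 (0.95), Gab1 (0.936), Nfib (0.935), Marcksl1 (0.922) and Cdk2 (0.920), and Sst was not among them.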

How the data were processed

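The authors deposited 3 tables of raw gene counts, whole reads per Ensembl gene with no normalization. The submitters' processing notes name HTSeq 0.7.1 and GSNAP and the builds NCBIM37 and mm9, without a strand setting. Trizol RNA and the SMARTer Stranded kit gave the libraries, per the labels' protocols. Rows that name no gene were left out: unaligned reads were between 2.18% and 53.6% of a library in the β-cell and Db tables, and the TSC1 KO table has no such rows. Of the neonatal columns 2 carry the number 3 and are called replicates 3a and 3b. Replicates differed by 10.03 to 81.32 in chi-square per degree of freedom, so no pair looked like one library deposited again.

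Each table was fitted alone with edgeR 4.0.16 in R 4.3.3 (robust, two-sided quasi-likelihood F test). Genes were kept by filterByExpr, with a minimum count of 10 and a minimum total of 15, and libraries were scaled by TMM. Adjustment (Benjamini-Hochberg) ran over every gene that passed the filter. A gene with an adjusted p below 0.05 is called. CPM are counts over the TMM-scaled total. Alternatives were DESeq2 1.42.0 and limma-voom (limma 3.58.1), other scalings and filters, leaving out each library, and a replicate block. Same-numbered islet libraries did not deviate together over 2 pairs, too few to exclude a pairing, and none was assumed. The fits were tested on counts simulated with 1 fixed dispersion. Changes of 2-fold were recovered in 47.5% of cases in the β-cell table, 18.2% in the TSC1 KO table and 15.5% in the Db table. For 4-fold changes these shares were 100%, 89.6% and 93.8%. A gene that was not called may therefore still have changed by 2-fold, or by more where its spread exceeds the simulated one. In β-cells Pyy, 5.75-fold lower, and Npy, 4.00-fold higher, were not called, so the simulated shares do not carry over to the members. Intervals and floors (3 counts) cover counting error only. All members were named, with the called genes of each companion list in order of adjusted p, at most 4 a list; some genes of these lists are not reported here. Members and lists were chosen with earlier results of these data known.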

Additional observations from a re-analysis of the deposited data

Results flagged for a closer look

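For 7 members the TSC1 KO effect and the Db effect differed in the joint edgeR fit over the 8 islet libraries, where 31.8% of all genes did. The difference, TSC1 KO effect minus Db effect on the log2 scale, was -4.22 for Irx1, -3.71 for Ppy, -3.13 for Gcg, -3.10 for Pyy, -2.33 for Sst, -1.97 for Irx2 and 3.74 for Hhex, with adjusted p between 9.6e-05 for Hhex and 0.0290 for Irx2. The differences of Gcg, Ppy, Pyy, Irx1 and Hhex were called in all 12 alternatives run for them. That of Sst was called in 9 of 12, lost without Db replicate 1 (adjusted p = 0.0806), BKS control replicate 1 (0.0781) or BKS control replicate 2 (0.0630). That of Irx2 was called in 6 of 12 and lost without TSC1 KO replicate 2 (0.0909), RC control replicate 2 (0.0520), Db replicate 1 (0.103), Db replicate 2 (0.0598), BKS control replicate 1 (0.103) or BKS control replicate 2 (0.0675). Genotype, age, table and control prefix cannot be told apart in it.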

How the results depend on the processing

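Settings other than those reported were chosen with the members' earlier results known, and those for the gene lists were added after seeing the data. In β-cells the number of members called, 1 as reported, was 2 with libraries scaled by total counts alone, with no filter, with a filter of 1 CPM in every library of a group and with limma-voom, 3 with DESeq2, and 0 to 2 with 1 library left out. All genes called numbered 999 as reported, 1707 with DESeq2 and 405 to 1380 with 1 library left out (405, 430 and 463 without adult replicates 1, 2 and 3). In TSC1 KO islets leaving out 1 library gave 0 to 6 members and 0 to 4015 genes, and the replicate block gave 4 members and 1678 genes (739 higher, 939 lower), against 2712. With the block, Gcg (adjusted p = 0.0774), Irx2 (0.0937), Ttr (0.0553), Slc7a2 (0.0734), Chga (0.0732) and Fev (0.0748) lost their call. In Db islets leaving out 1 library gave 3 to 7 members and 4419 to 6666 genes, and the block gave 5 members, with Gcg added. In the joint fit leaving out 1 library gave 5 to 7 members and 2912 to 5911 genes. Same-numbered islet libraries correlated at -0.062 (TSC1 KO table) and -0.056 (Db table) in their deviations over 2 pairs. With so few pairs this cannot exclude that they share a litter or batch. In β-cells no such block could be fitted, because the neonatal columns carry fewer than 2 unambiguous numbers of the adult ones.

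Scaling by total counts alone moved the median log2 fold change of all genes to -0.19 in β-cells (321 higher, 866 lower, against 484 and 515), -0.25 in TSC1 KO islets (762 and 1961, against 1252 and 1460), 0.29 in Db islets (3997 and 1564, against 3488 and 3431) and -0.47 in the joint fit (868 and 3809, against 2066 and 2922). Direction reversed for members that had not passed the test: Gcg in β-cells without adult replicate 2 (0.40) and neonatal replicate 3b (0.17; range over left-out libraries -1.04 to 0.40), Sst in β-cells with total counts alone (-0.023) and without adult replicate 3 (-0.08) or neonatal replicate 3a (-0.20; range -0.20 to 0.56), Ppy in Db islets without BKS control replicate 1 (-0.23; range -0.23 to 1.131), and Irx2 in Db islets with total counts alone (0.0018). The cause was not tested. By rank correlation 1 of the 5 genes nearest to Gcg was shared with Pearson's, 2 for Sst, 2 for Ppy and 3 for Hhex. Depth limits Ghrl in islets, where no library had over 10 counts, and Irx1 in TSC1 KO islets, at 8 counts and 1 count. It also limits Irx2 in TSC1 KO islets, at 22 and 5 counts, and Hhex in adult β-cells, at 42, 4 and 26 counts.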

Other observations

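Gast, which encodes gastrin, a hormone of the stomach and of the developing islet that is not among the members, was at 16.8 and 27.3 CPM in Db islets and at 0 in both BKS control islets. It was at 0 in both TSC1 KO islets, against 0 and 0.293 CPM in RC control islets, and in β-cells at most 0.160 CPM in adult and 2.66 CPM in neonatal libraries. Gast was chosen after its values were seen.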
